A study of Mus musculus with 16 samples.

Results

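Genes of lysosomal enzymes and lysosomal membrane proteins were examined in tumors and nontumor liver of mice on either of 2 diets. The set holds 34 genes, picked by symbol from the 20601 genes of the deposited expression table. By role it holds 7 genes of lysosomal membrane and transport proteins, 9 of proteases, 10 of glycosidases, 3 of sulfatases and 5 of the breakdown of lipids and lipid-linked proteins. All 34 were listed in the table, and all 34 passed the filter on low values.

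The 16 libraries came from 8 mice and form 4 groups of 4. Every mouse, the source of the nontumor libraries included, carried the tumor model: hydrodynamic delivery, a rapid injection that brings DNA into liver cells, of plasmids for human N-Ras (19 µg per mouse) and human c-Myc (1 µg) with a plasmid for the Sleeping Beauty transposase (2 µg), which inserts transgenes into the genome. From week 4 the KD mice ate a ketogenic diet (0.1% carbohydrate, 89.5% fat and 10.4% protein by the supplier's figures) and the ND mice a normal diet whose make-up the labels do not give, and after 4 weeks, at week 8, tumor and nontumor tissue were cut from the liver. The groups are thus ND nontumor, ND tumor, KD nontumor and KD tumor. No liver free of the plasmids was analysed here, and the strain, sex and age of the mice, the promoters of the transgenes and the number of nodules per tumor sample were not given in the sources used here. Both tissues come from the same 8 mice and the labels do not tie a library to a mouse, so the p-values below measure the spread between these libraries.

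Lysosomes are acidic organelles that break down proteins, glycans, lipids and nucleic acids delivered by endocytosis and autophagy. Their soluble hydrolases are carried from the Golgi by mannose 6-phosphate receptors, the V-ATPase proton pump keeps them acidic, and heavily glycosylated membrane proteins such as LAMP1 and LAMP2 line the organelle. Many of the genes are targets of the transcription factor TFEB and its relatives TFE3 and MITF, which bind an E-box, extended in the CLEAR element, in lysosomal promoters. In liver, hepatocytes use lysosomes to recycle their own contents during fasting, and Kupffer cells, the resident macrophages, use them to degrade what they engulf.

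Promoter sequences are shown because the E-box is a site through which TFEB is known to act on lysosomal genes, and because the members that carry it differed in direction. RefSeq windows from 250 bases before the start site through the first 50 transcribed bases (build GRCm38.p6) were found for 30 of the 34 genes, in 33 windows. Asah1, Npc1, Ctsh and Ctsb had no window. The E-box CACGTG, which reads the same on both strands, was present in windows of 12 of the 30 genes (40.0%), against 10.12% of 14599 genes of the expression table and 8.093% of all 27025 genes with a window of the same length. Its extended core TCACGTGA, which contains the E-box, was present for 4 genes (13.33%, against 1.719% of the genes of the expression table and 1.125% of all genes). The full palindromic CLEAR element GTCACGTGAC, which contains both, was found in 0 of the 33 member windows and in 0.3257% of all 32851 windows, so its absence says only that these exact letters are not in these windows. The stretches printed here run from 100 bases before the start site to 20 after it for genes on which the later comparisons turn. Capitals mark each E-box.
Lamp1 (chr8:13159061-13159180, plus strand): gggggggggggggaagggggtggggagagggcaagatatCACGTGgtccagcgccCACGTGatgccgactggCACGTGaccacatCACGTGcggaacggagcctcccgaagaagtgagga
Ctsd (chr7:142387808-142387927, minus strand): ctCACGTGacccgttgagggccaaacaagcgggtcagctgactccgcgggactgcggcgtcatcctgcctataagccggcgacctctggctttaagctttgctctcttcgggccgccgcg
Glb1 (chr9:114400978-114401097, plus strand): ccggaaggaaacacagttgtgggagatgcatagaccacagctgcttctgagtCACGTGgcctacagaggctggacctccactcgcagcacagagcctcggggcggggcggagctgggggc
Mcoln1 (chr8:3500419-3500538, plus strand): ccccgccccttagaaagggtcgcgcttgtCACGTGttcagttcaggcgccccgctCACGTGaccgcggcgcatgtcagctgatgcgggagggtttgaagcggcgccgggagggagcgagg
Arsa (chr15:89477405-89477524, minus strand): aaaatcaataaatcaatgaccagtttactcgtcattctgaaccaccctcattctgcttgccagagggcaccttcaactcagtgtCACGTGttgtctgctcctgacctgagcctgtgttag
Cd63 (chr10:128909245-128909364, plus strand): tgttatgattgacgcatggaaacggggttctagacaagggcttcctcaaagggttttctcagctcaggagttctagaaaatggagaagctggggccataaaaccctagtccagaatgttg
Lamp1 held 4 E-boxes in this stretch, the most of any member window. Mcoln1 held 2, Ctsd held 2 in its whole window, Glb1 and Arsa held 1 each, and Cd63 held 0. A match to these letters is a description and not a measured binding site, and it does not tell which factor would bind. Binding of TFEB, of c-Myc from the plasmid or of any other factor was not tested.

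The table holds TPM, read counts divided by gene length and scaled to a fixed total, so levels can be compared between genes. The listed genes took very unequal parts of that total, from 7.38% in ND nontumor 4 to 88.4% in KD nontumor 2, and each library was therefore divided by a median-of-ratios factor over the 12119 genes above 0 in all libraries. All levels here are on this rescaled TPM scale, and a log2 fold change compares group means of log2(rescaled TPM + 1), which understates changes of low genes. Recovered read numbers put the depth over listed genes at 3518966 to 14074042 reads per library, and the member with the fewest reads had 3 in ND nontumor 4, the shallowest library, and 67 in KD tumor 3. A gene was called when its Benjamini-Hochberg adjusted p in limma, over 13202 tested genes, fell below 0.05, and ± after a fold change is its standard error.

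The libraries of KD nontumor liver split for these genes. KD nontumor 1 and 2 both lay above KD nontumor 3 and 4 for 24 of the 34 members (70.6%, against 32.0% of all tested genes), and both lay below them for 5 members (14.7%, against 32.1% of all tested genes). The summed level of the members was 1557 and 1507 rescaled TPM in KD nontumor 1 and 2 and 931 and 1056 in KD nontumor 3 and 4. KD nontumor 3 and 4 were also shallower, with 6132073 and 5676970 reads against 11039834 and 10968126. ND nontumor liver split less widely. ND nontumor 2 and 3 both lay above ND nontumor 1 and 4 for 16 members (47.1%, against 24.5% of all tested genes). They both lay below them for 3 members (8.82%, against 23.1% of all tested genes). The KD nontumor split was looked for after the values were seen. The main counts that involve KD nontumor liver are therefore also given without KD nontumor 3 and 4. That fit lowered the share over all genes too. For tumor against nontumor on KD 29.4% had an unadjusted p below 0.05 in limma, against 43.5% with all libraries. No fit left out a pair of ND nontumor libraries.

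Levels of the members spanned a wide range within each group. Ctsz, which encodes cathepsin Z, a carboxypeptidase, was the highest member in all 4 groups and made up 12.7% of the members' summed level in ND nontumor, 15.4% in KD nontumor, 22.7% in ND tumor and 27.0% in KD tumor. The next highest were Ctsa and Ctsb in ND nontumor and Psap and Ctsa in KD nontumor, but Ctsd and Cd63 in tumors on both diets. The members' summed level ran from 1068 to 1387 rescaled TPM in ND nontumor, 1442 to 1800 in ND tumor, 931 to 1557 in KD nontumor and 1912 to 2507 in KD tumor. Each tumor group lay above its nontumor group, and the KD tumors lay above the ND tumors. As a share of the TPM of all listed genes the members took 0.181 to 0.208% in ND nontumor, 0.271 to 0.338% in ND tumor, 0.190 to 0.224% in KD nontumor and 0.269 to 0.367% in KD tumor. By that measure tumors still lay above nontumor liver, but KD and ND tumors overlapped. By group mean 18 of the 34 members were highest in KD tumor, 5 in ND tumor, 7 in KD nontumor and 4 in ND nontumor.

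**Figure D1:**
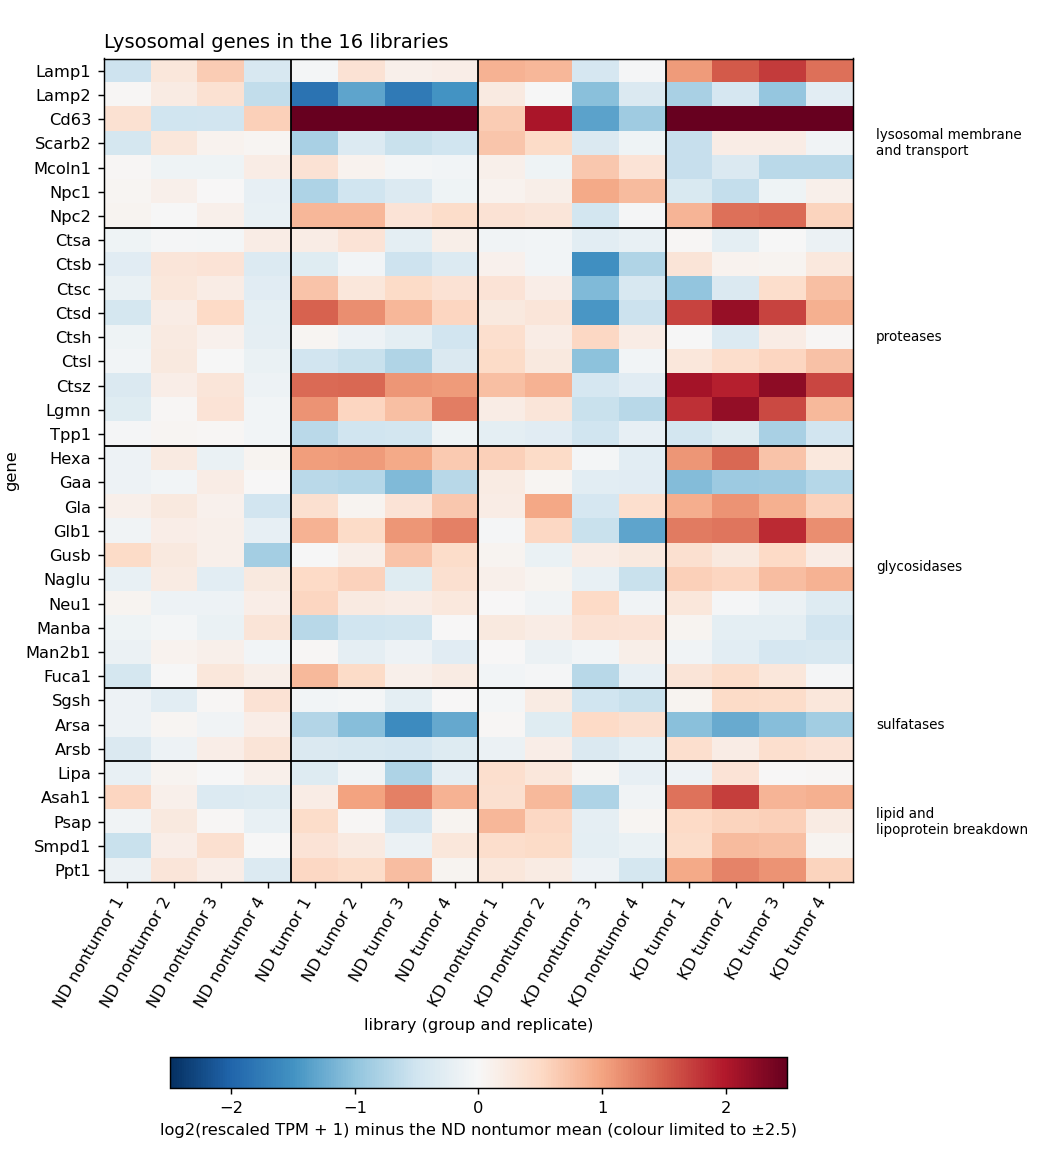
Each row is a member, grouped by role, and each column a library; colour gives log2(rescaled TPM + 1) minus the mean of the 4 ND nontumor libraries, limited to 2.5 in either direction. Cd63, Ctsd, Ctsz, Lgmn and Glb1 are red in most tumor libraries, Gaa and Arsa are blue in tumors, and KD nontumor 3 and 4 differ from KD nontumor 1 and 2 in many rows.

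Tumors carried more RNA of some lysosomal genes and less of others on both diets. On ND, 10 of the 34 members were called between tumor and nontumor liver, against 29% of all tested genes: Cd63, Ctsz, Glb1, Hexa, Lgmn and Npc2 rose (14.6% of all genes did) and Lamp2, Arsa, Gaa and Tpp1 fell (14.3% of all genes did). On KD, 18 members were called, against 33% of all tested genes, with 13 higher (38.2%, against 16.6% of all genes) and 5 lower (against 16.4%). The share called on ND is near the share of all genes, and so is the share lower on KD. The median log2 fold change over the members was 0.13 on ND and 0.43 on KD, with medians over all tested genes of -0.0050 and 0.013. Tumor and nontumor libraries did not overlap for 9 members higher in tumor (14% of all genes) and 5 lower (13.8%) on ND, and for 12 higher (16.1%) and 4 lower (17.4%) on KD.

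Across the diets, 6 members rose in tumors on both (Cd63, Ctsz, Lgmn, Glb1, Hexa and Npc2), 2 fell on both (Gaa and Arsa), and 14 passed on neither. The number on KD depended on KD nontumor 3 and 4. Without KD nontumor 3 and 4 only 8 of the 18 calls on KD remained (5 higher, namely Cd63, Ctsd, Ctsz, Lgmn and Glb1, and 3 lower, namely Gaa, Arsa and Mcoln1), and the median member changed by 0.14, while 14 members were then called on ND. Over all genes the number called on KD went from 4361 to 1966 without these libraries. On ND 42.8% of all genes had an unadjusted p below 0.05 in limma without them and 40.1% with them. For the members these counts on ND were 19 and 16 of 34. On the deposited TPM, without rescaling, 1 member was called on ND (Cd63) and 2 on KD (Cd63 and Glb1), and the median of all genes moved to 0.42 on ND and -0.26 on KD. Among all called genes 50.46% were higher in tumor on ND with the rescaled values, 77.15% on the deposited scale and 70.63% with the listed genes scaled to a common sum. On KD these shares were 50.24%, 34.83% and 29.85%. With the common sum 10 members were higher and 3 lower on ND, against 2624 and 1091 of 13429 genes. On KD 8 members were higher and 8 lower on that scale, against 1197 and 2813 genes. The median member then stood at 0.38 on ND and 0.13 on KD, and the median gene at 0.21 and -0.25.

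**Figure D2:**
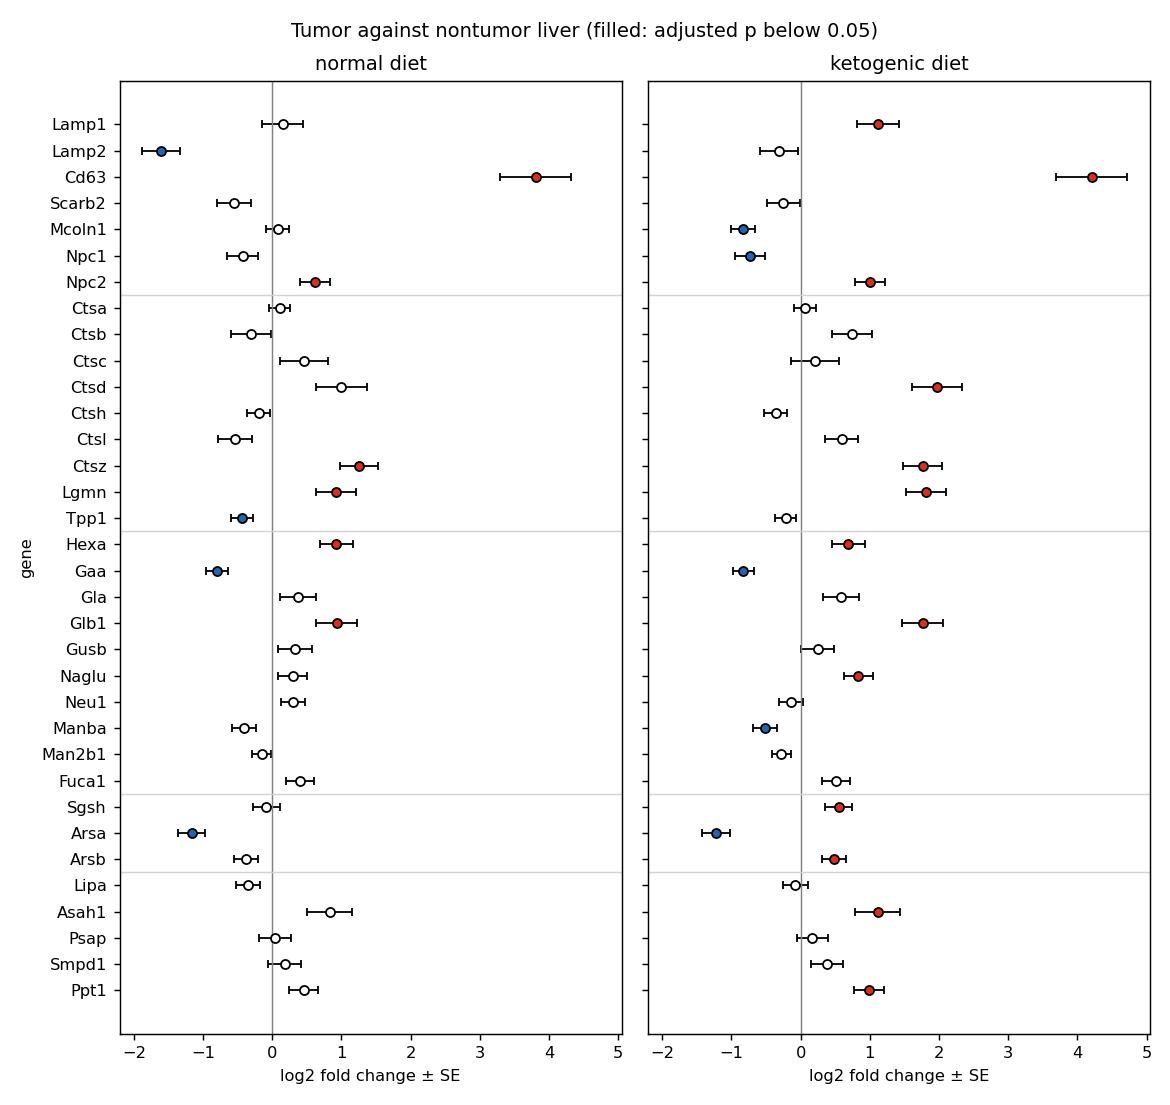
Log2 fold change of tumor against nontumor liver for the 34 members on the normal diet (left) and the ketogenic diet (right), with its standard error; red and blue points are called higher and lower, open points are not called. On ND 6 points are red and 4 blue; on KD 13 are red and 5 blue, and Cd63 lies far to the right in both panels.

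Among membrane and transport genes Cd63 showed the greatest difference of any member. Cd63, a tetraspanin of late endosomes, lysosomes and secreted vesicles, stood at 10.6, 5.31, 5.42 and 12.4 rescaled TPM in ND nontumor 1 to 4 and at 112, 139.9, 117 and 127 in ND tumor 1 to 4. On KD it stood at 12.8, 35.5, 2.54 and 3.79 in nontumor liver and at 215, 193, 154 and 151 in tumors. Every tumor library lay far above every nontumor library on both diets. KD nontumor 2 was the highest nontumor library and KD nontumor 3 the lowest. The ratio of group means was 14.7 on ND and 13.1 on KD, with log2 fold changes of 3.81 ± 0.51, adjusted p = 4.95e-05, and 4.21 ± 0.51, adjusted p = 2.53e-05. Cd63 kept both calls under each scaling and with each library left out in turn.

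The LAMP pair moved differently. Lamp1 encodes an abundant glycoprotein of the lysosomal membrane, and its levels were 39.3, 69.7, 89.2 and 42.9 in ND nontumor, 54.9, 73.3, 62.4 and 63.7 in ND tumor, 105, 102, 42.4 and 55.5 in KD nontumor and 120.5, 167, 194 and 149 in KD tumor. The 4 KD tumors exceeded all 12 other libraries, while ND tumors lay within the range of ND nontumor liver. Lamp1 rose in tumors on KD (log2 fold change 1.12 ± 0.30, adjusted p = 0.00925), a call lost without KD nontumor 3 and 4 (0.57, adjusted p = 0.212), and on ND its log2 fold change was 0.15 ± 0.30, adjusted p = 0.748. Lamp2, whose LAMP2A form admits proteins in chaperone-mediated autophagy, stood at 65.8, 74.0, 84.7 and 41.8 in ND nontumor and 17.2, 25.4, 18.3 and 22.1 in ND tumor. On KD the Lamp2 levels were 75.1, 64.3, 30.6 and 49.7 in nontumor liver and 36.3, 47.8, 32.6 and 53.5 in tumors. The ND tumors lay below all other libraries, and the KD tumors overlapped KD nontumor liver. Lamp2 fell in ND tumors to 0.312 of the nontumor mean (log2 fold change -1.61 ± 0.27, adjusted p = 0.000352), against -0.31 ± 0.27, adjusted p = 0.392 on KD.

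Both Niemann-Pick type C genes and the lysosomal calcium channel gene Mcoln1 were called on KD. Npc2, whose soluble product hands cholesterol to NPC1, stood at 7.01, 6.58, 7.26 and 5.71 in ND nontumor and 12.6, 12.5, 8.64 and 9.47 in ND tumor, and at 8.82, 8.44, 4.54 and 6.49 in KD nontumor and 12.8, 18.7, 19.2 and 10.2 in KD tumor. Tumors lay above nontumor liver without overlap on both diets. Npc2 rose by 0.61 ± 0.22, adjusted p = 0.0442, on ND and by 1.00 ± 0.22, adjusted p = 0.00254, on KD. The ND call was lost without any of the 4 ND nontumor libraries, ND tumor 1 or 2, KD nontumor 4 or KD tumor 1 (adjusted p up to 0.111), and the KD call without KD nontumor 3 and 4 together (0.70, adjusted p = 0.061). Npc1, the membrane transporter that exports cholesterol from lysosomes, ranged from 7.32 to 12.7 in KD tumors and from 12.4 to 23.2 in KD nontumor liver, so the groups just overlapped. Its log2 fold change on KD was -0.73 ± 0.22, adjusted p = 0.0164, and the call was lost without KD nontumor 3, KD nontumor 4 or KD tumor 2 (adjusted p up to 0.059).

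Mcoln1, which encodes the calcium channel TRPML1, stood at 15.8, 14.3, 14.2 and 17.7 in ND nontumor and 20.1, 16.5, 14.9 and 14.6 in ND tumor, and at 17.0, 14.2, 25.3 and 19.9 in KD nontumor and 10.1, 11.7, 9.30 and 9.31 in KD tumor. The KD tumors were below all other libraries, and ND tumors overlapped ND nontumor liver. On KD Mcoln1 fell in tumors (log2 fold change -0.83 ± 0.17, adjusted p = 0.00162), and on ND the log2 fold change was 0.08 ± 0.17, adjusted p = 0.763. Scarb2, the carrier of glucocerebrosidase to lysosomes, was not called in any comparison and ranged from 6.996 to 21.7 over the libraries.

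Of the 9 proteases, 2 rose and 1 fell in ND tumors (14.6% and 14.3% of all genes did), and 3 rose in KD tumors (16.6% of all genes did), also without KD nontumor 3 and 4. Ctsd, the aspartic protease cathepsin D, stood at 68.9, 106, 133 and 78.4 in ND nontumor and 262, 210.2, 167 and 135 in ND tumor, and at 111, 115, 33.6 and 64.0 in KD nontumor and 303, 424, 305 and 174 in KD tumor. Tumors exceeded nontumor liver on both diets without overlap. Ctsd rose on KD (log2 fold change 1.97 ± 0.37, adjusted p = 0.000817), and its value on ND was 1.00 ± 0.37, adjusted p = 0.0514. Without KD nontumor 3 and 4 the KD value was 1.33 (adjusted p = 0.0179).

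Ctsz levels were 120.1, 174, 191 and 142 in ND nontumor, 412, 416, 331 and 324 in ND tumor, 258, 281, 114 and 126 in KD nontumor and 652, 597, 734 and 494 in KD tumor. Tumors lay above nontumor liver without overlap on both diets, and the 4 KD tumors were the 4 highest libraries. Ctsz rose by 1.25 ± 0.28, adjusted p = 0.00304, on ND and by 1.76 ± 0.28, adjusted p = 0.000237, on KD, and each library left out in turn kept both calls. Lgmn encodes legumain, an endopeptidase that cuts after asparagine and also processes cathepsins. Its levels were 29.4, 37.6, 46.6 and 35.0 in ND nontumor, 80.5, 53.3, 62.2 and 90.8 in ND tumor, 41.5, 45.6, 24.7 and 22.3 in KD nontumor and 133, 171, 118 and 64.6 in KD tumor. Again no tumor overlapped nontumor liver of the same diet, with KD tumor 4 the lowest KD tumor. Lgmn rose by 0.92 ± 0.29, adjusted p = 0.0263, on ND and by 1.81 ± 0.29, adjusted p = 0.000275, on KD. The ND call was lost without ND nontumor 1, 2 or 4 or ND tumor 1 or 4 (adjusted p up to 0.0742).

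Ctsl, the cysteine protease cathepsin L, was low in ND tumors and high in KD tumors. It stood at 33.7, 42.0, 35.2 and 31.3 in ND nontumor, 25.0, 23.8, 20.7 and 27.4 in ND tumor, 49.4, 42.3, 17.0 and 33.8 in KD nontumor and 43.4, 48.6, 52.1 and 59.2 in KD tumor. ND tumors lay below all ND nontumor libraries, and KD tumors overlapped KD nontumor 1. Neither comparison passed, with log2 fold changes of -0.53 ± 0.24, adjusted p = 0.114 on ND, and 0.59 ± 0.24, adjusted p = 0.0737 on KD. Tpp1, tripeptidyl peptidase 1, stood at 60.4, 63.2, 63.1 and 58.8 in ND nontumor and 38.03, 43.3, 44.3 and 56.6 in ND tumor. Tpp1 fell in ND tumors by 0.44 on the log2 scale (SE 0.15, adjusted p = 0.042), and was not called on the deposited TPM, where its log2 fold change was 0.20 (adjusted p = 0.881), or -0.22 relative to the median gene. That call was also lost without any of the 4 ND nontumor libraries, ND tumor 1, 2 or 3, KD nontumor 2 or KD tumor 1 (adjusted p up to 0.13). On KD the Tpp1 levels were 51.9, 50.3, 43.3 and 53.1 in nontumor liver and 44.3, 49.2, 34.4 and 43.6 in tumors, which overlapped.

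The cysteine proteases Ctsb, Ctsc and Ctsh and the carboxypeptidase gene Ctsa passed in no comparison. Ctsa, which protects beta-galactosidase and neuraminidase, was among the steadiest members, at 90.5 to 139 over the 16 libraries. Ctsb ranged from 35.0 in KD nontumor 3 to 130.1 in ND nontumor 3, and its log2 fold change on KD was 0.75 ± 0.29, adjusted p = 0.0553.

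**Figure D3:**
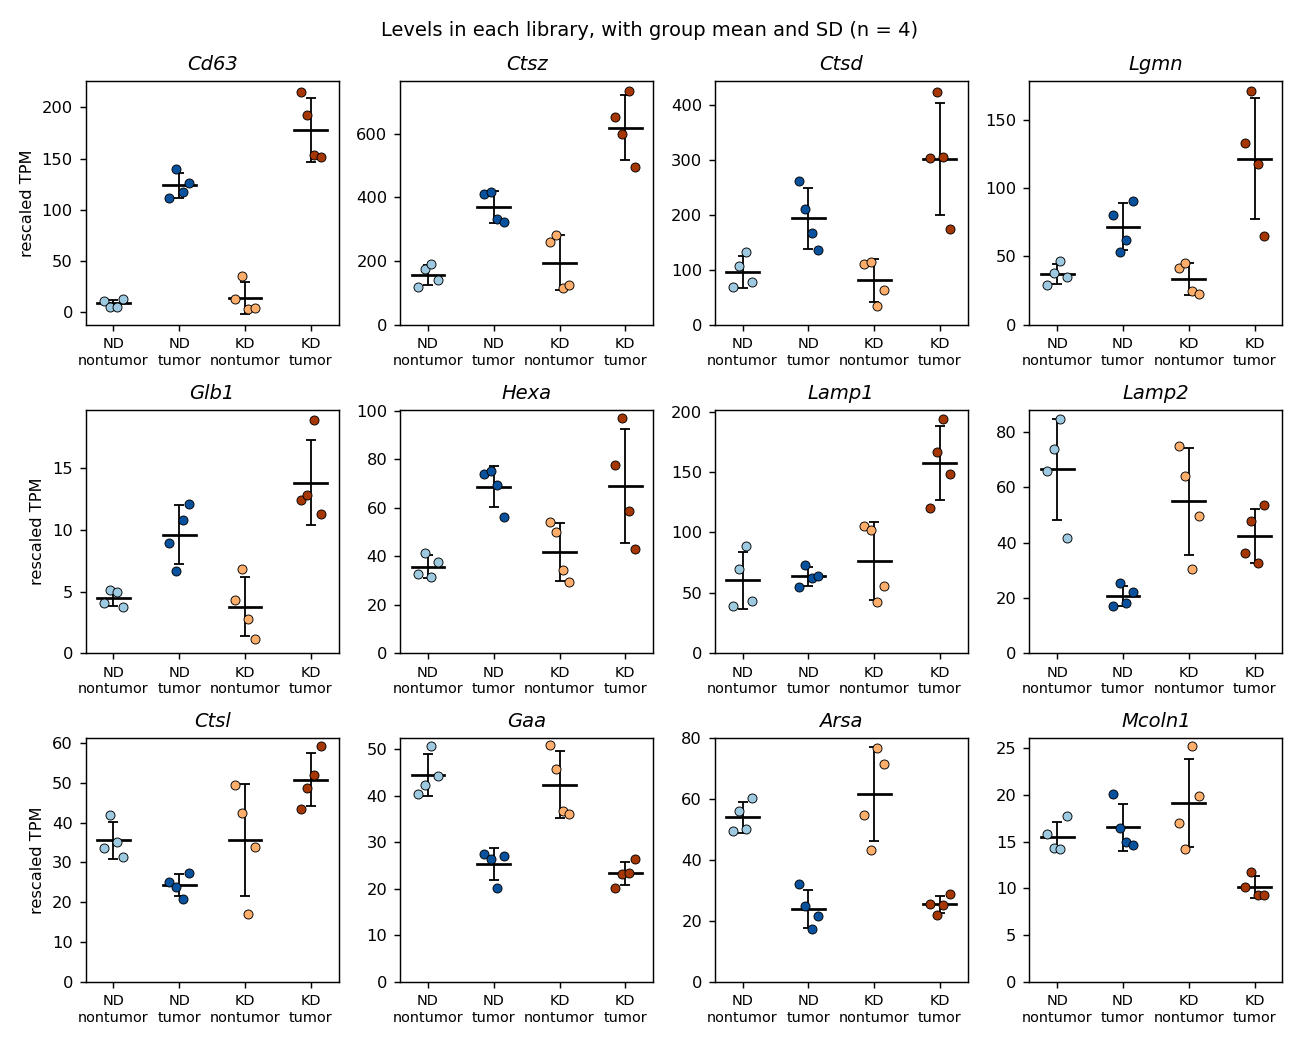
Rescaled TPM of 12 members in each of the 16 libraries, with the group mean (line) and SD (bars), n = 4; each panel has its own axis. Cd63, Ctsz, Ctsd, Lgmn and Glb1 are higher in tumors on both diets, Gaa and Arsa are lower on both, and Lamp1 and Ctsl are highest in KD tumors.

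Glycosidases, which trim sugars from glycoproteins, glycolipids and glycosaminoglycans, gave 2 higher and 1 lower of 10 on ND (14.6% and 14.3% of all genes) and 3 higher and 2 lower on KD (16.6% and 16.4% of all genes). The KD count was 1 higher and 1 lower without KD nontumor 3 and 4. Glb1, the beta-galactosidase used as a stain of senescent cells, stood at 4.10, 5.11, 4.99 and 3.75 in ND nontumor and 8.93, 6.64, 10.8 and 12.1 in ND tumor, and at 4.31, 6.79, 2.74 and 1.18 in KD nontumor and 12.4, 12.8, 18.9 and 11.2 in KD tumor. Tumors lay above nontumor liver on ND, and on KD the lowest tumor exceeded the highest nontumor library. Glb1 rose by 0.93 ± 0.30, adjusted p = 0.028, on ND and by 1.76 ± 0.30, adjusted p = 0.000409, on KD. The ND call was lost without ND nontumor 1 or 4 or ND tumor 3 or 4 (adjusted p up to 0.0708), and the KD call was kept under each scaling.

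Hexa, the alpha subunit of hexosaminidase A, which degrades GM2 ganglioside, stood at 32.6, 41.5, 31.4 and 37.5 in ND nontumor and 74.0, 75.1, 69.6 and 56.4 in ND tumor, and at 54.1, 49.99, 34.2 and 29.5 in KD nontumor and 77.9, 97.2, 58.7 and 42.9 in KD tumor. The ND groups did not overlap, and KD tumor 4 lay below KD nontumor 1 and 2. Hexa rose by 0.93 ± 0.24, adjusted p = 0.00832, on ND and by 0.69 ± 0.24, adjusted p = 0.0368, on KD. The KD call was lost without KD nontumor 3 or 4 or KD tumor 1 or 2 (adjusted p up to 0.132). Naglu, which removes N-acetylglucosamine from heparan sulfate, stood at 14.8, 14.3, 11.7 and 8.86 in KD nontumor and 20.8, 20.2, 23.6 and 25.7 in KD tumor, without overlap. On ND it stood at 11.7, 15.7, 11.1 and 16.3 in nontumor liver and 19.6, 20.7, 10.8 and 18.1 in tumors, with overlap. Naglu rose on KD (log2 fold change 0.83 ± 0.21, adjusted p = 0.00638), and without KD nontumor 3 and 4 the value was 0.59 (adjusted p = 0.115).

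Gaa, the acid alpha-glucosidase that degrades glycogen in lysosomes, was lower in tumors. Its levels were 40.4, 42.3, 50.8 and 44.3 in ND nontumor, 27.4, 26.5, 20.2 and 27.1 in ND tumor, 50.9, 45.8, 36.7 and 36.1 in KD nontumor and 20.2, 23.2, 23.4 and 26.5 in KD tumor. All 8 tumor libraries lay below all 8 nontumor libraries. The log2 fold changes of Gaa were -0.80 ± 0.16, adjusted p = 0.00126, on ND and -0.83 ± 0.16, adjusted p = 0.000952, on KD, and each library left out in turn kept both calls. Manba, beta-mannosidase, stood at 5.89, 5.65, 6.45 and 6.36 in KD nontumor and 5.06, 3.88, 3.90 and 3.15 in KD tumor, and at 4.39, 4.60, 4.19 and 6.27 in ND nontumor and 2.58, 3.09, 3.25 and 4.88 in ND tumor. The KD groups did not overlap, and ND tumor 4 lay within the nontumor range. Manba fell on KD (log2 fold change -0.52 ± 0.18, adjusted p = 0.0329), a call lost without KD nontumor 3 or 4 or KD tumor 2, 3 or 4 (adjusted p up to 0.0897). The other 5 glycosidase genes, Gla, Gusb, Neu1, Man2b1 and Fuca1, passed in no comparison. Gla, alpha-galactosidase A, was the lowest of them at 0.432 to 3.34 rescaled TPM, and Fuca1, alpha-fucosidase, had log2 fold changes of 0.40 ± 0.20, adjusted p = 0.153, on ND and 0.51 ± 0.20, adjusted p = 0.0671, on KD.

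Sulfatases remove sulfate groups from lipids and glycosaminoglycans, and the 3 members split. On ND 1 fell (14.3% of all genes did). On KD 2 rose and 1 fell (16.6% and 16.4% of all genes did), or 1 fell alone without KD nontumor 3 and 4. Arsa, arylsulfatase A, which degrades sulfatide, stood at 49.4, 55.9, 50.3 and 60.4 in ND nontumor and 32.2, 25.0, 17.3 and 21.5 in ND tumor, and at 54.7, 43.3, 76.9 and 71.6 in KD nontumor and 25.7, 21.8, 25.1 and 28.9 in KD tumor. All 8 tumors lay below all 8 nontumor libraries, and KD nontumor 3 and 4 were the highest of all. Arsa fell to 0.444 of the nontumor mean on ND and 0.412 on KD, with log2 fold changes of -1.17 ± 0.20, adjusted p = 0.000444, and -1.22 ± 0.20, adjusted p = 0.000338. Arsb, which acts on dermatan and chondroitin sulfate, stood at 2.44, 3.05, 4.02 and 4.60 in ND nontumor, 2.45, 2.39, 2.31 and 2.58 in ND tumor, 3.03, 4.02, 2.47 and 2.77 in KD nontumor and 4.93, 4.07, 4.98 and 4.64 in KD tumor. The KD tumors lay above KD nontumor liver without overlap, and ND tumors overlapped ND nontumor 1. On KD Arsb rose by 0.48 ± 0.17, adjusted p = 0.0384, and the call was lost without KD nontumor 1, 3 or 4 or KD tumor 1, 3 or 4 (adjusted p up to 0.117). Sgsh, the heparan sulfatase, ranged from 3.02 to 4.36 in KD tumors and from 1.61 to 3.42 in KD nontumor liver, which overlapped. Its log2 fold change on KD was 0.55 ± 0.20, adjusted p = 0.0387, a call lost without KD nontumor 3 or 4 or KD tumor 2, 3 or 4 (adjusted p up to 0.129).

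Of the 5 genes of lipid and lipid-linked protein breakdown, 0 were called on ND by limma (1, Asah1, at an unadjusted p below 0.05, and 0 with voom) and 2 rose on KD. Over all genes 29% were called on ND and 16.6% rose on KD. With KD nontumor 3 and 4 left out limma called 0 of these 5 on KD (1, Ppt1, at an unadjusted p below 0.05). Asah1, acid ceramidase, stood at 9.95, 7.25, 4.98 and 4.99 in ND nontumor, 7.61, 14.2, 17.1 and 12.7 in ND tumor, 9.01, 12.2, 3.41 and 6.14 in KD nontumor and 18.2, 24.0, 12.6 and 12.9 in KD tumor. KD tumors exceeded KD nontumor liver, by 12.6 against 12.2 at the nearest pair, and ND tumor 1 lay within the ND nontumor range. Asah1 rose by 1.11 ± 0.32, adjusted p = 0.0152, on KD, lost without KD nontumor 3 or KD tumor 2 (adjusted p up to 0.059), and the ND value was 0.83 ± 0.32, adjusted p = 0.0647. Ppt1, which strips palmitate from proteins, stood at 5.32, 7.59, 6.83 and 4.48 in ND nontumor, 8.92, 8.51, 10.9 and 6.27 in ND tumor, 7.40, 7.01, 5.39 and 4.10 in KD nontumor and 12.4, 15.4, 14.2 and 9.15 in KD tumor. KD tumors did not overlap KD nontumor liver. Ppt1 rose by 0.99 ± 0.21, adjusted p = 0.00244, on KD, and without KD nontumor 3 and 4 the value was 0.71 (adjusted p = 0.0606). Lipa, lysosomal acid lipase, Psap, the precursor of the saposins that present sphingolipids to hydrolases, and Smpd1, acid sphingomyelinase, passed in no comparison, with log2 fold changes on KD of -0.07, 0.17 and 0.38.

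Between tumors of the ketogenic and the normal diet 5 of the 34 members were called, a share near the 16% of all tested genes. Lamp1, Ctsl, Lamp2 and Arsb were higher on KD (7.35% of all genes were) and Mcoln1 was lower (8.63% of all genes were). The log2 fold changes were 1.28 ± 0.30, adjusted p = 0.0115, for Lamp1 and 1.04 ± 0.24, adjusted p = 0.012, for Ctsl. For Lamp2 and Arsb they were 0.99 ± 0.27, adjusted p = 0.0227, and 0.72 ± 0.17, adjusted p = 0.0124, and Mcoln1 changed by -0.65 ± 0.17, adjusted p = 0.0186. The KD and ND tumor libraries did not overlap for any of the 5, as the values given by role show. The median member differed by 0.40, against 0.033 over all genes, and 8 members were higher and 1 lower on KD without overlap, against 12.5% and 10.6% of all genes.

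The calls on Lamp1, Ctsl and Arsb between tumors were kept with each library left out in turn. Lamp2 was lost without ND tumor 1 or 3 or KD tumor 2 or 4 (adjusted p up to 0.0702), and Mcoln1 without ND tumor 1 or KD tumor 3 or 4 (adjusted p up to 0.0612). The counts depended on the scale, which moves all genes alike. The median member stood at 0.40, 0.37 and -0.05 on the rescaled, deposited and common-sum values, and the median gene at 0.033, -0.00 and -0.34. With the listed genes scaled to a common sum 1 member was higher and 7 were lower on KD. Over all genes 275 were higher and 2616 lower of 13429, so the share of members lower is near that of all genes. Of the called genes 9.512% were higher on that scale, against 45.99% with the rescaled values and 34.51% on the deposited TPM. On the deposited TPM 0 members were called, where 39 genes were higher and 74 lower of 13432. Lamp1 was the member called higher on the common sum too. KD tumors also had the higher summed hepatocyte markers, at 129152 to 189889 rescaled TPM against 73198 to 128510 in ND tumors. Of the 10 hepatocyte markers limma called 0 between tumors (2, Ttr and Ahsg, at an unadjusted p below 0.05, and 0 with voom). Without KD nontumor 3 and 4 in the fit it called 2 higher and 0 lower. The part of the hepatocyte difference in the result was not tested.

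In nontumor liver 0 of the 34 members were called between diets by limma, against 0.053% of all tested genes. At an unadjusted p below 0.05 there was 1 (Npc1, 0.50 ± 0.22, adjusted p = 0.506), against 8.93% of all genes. Voom on recovered reads called 0 and also had 1 at an unadjusted p below 0.05, against 7.87% of all genes. The log2 fold changes ran from -0.56 (Ctsb) to 0.50 (Npc1), with a median of 0.07, or 0.24 without KD nontumor 3 and 4. Without those 2 libraries limma called 0 members too (5 at an unadjusted p below 0.05, against 12.7% of all genes). Standard errors of 0.13 to 0.51 and the spread among KD nontumor libraries limit what differences could be seen here. Tpp1 was the member whose nontumor groups did not overlap, with all 4 KD libraries lower (2.8% of all genes were lower without overlap).

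The difference of differences, tumor against nontumor on KD minus the same on ND, was called for 0 of 34 members by limma, against 0.659% of all genes. At an unadjusted p below 0.05 there were 8 members, against 18.1% of all genes: Lamp1, Lamp2, Ctsb, Ctsl, Lgmn, Sgsh and Arsb with a higher value on KD and Mcoln1 with a lower one. The lowest adjusted p was that of Mcoln1 (-0.91 ± 0.24, adjusted p = 0.0859), followed by Arsb (0.86 ± 0.24, adjusted p = 0.0952) and Lamp2 (1.29 ± 0.38, adjusted p = 0.108). With voom 0 were called and 7 had an unadjusted p below 0.05, and with the listed genes scaled to a common sum 1, Mcoln1, was called. The median over the members was 0.25, and 0.0016 without KD nontumor 3 and 4, when limma called 0 (4 at an unadjusted p below 0.05, against 11.4% of all genes). A call on KD that was absent on ND, as for Ctsd, Lamp1, Naglu or Ppt1, is therefore not shown to differ between diets.

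**Figure D4:**
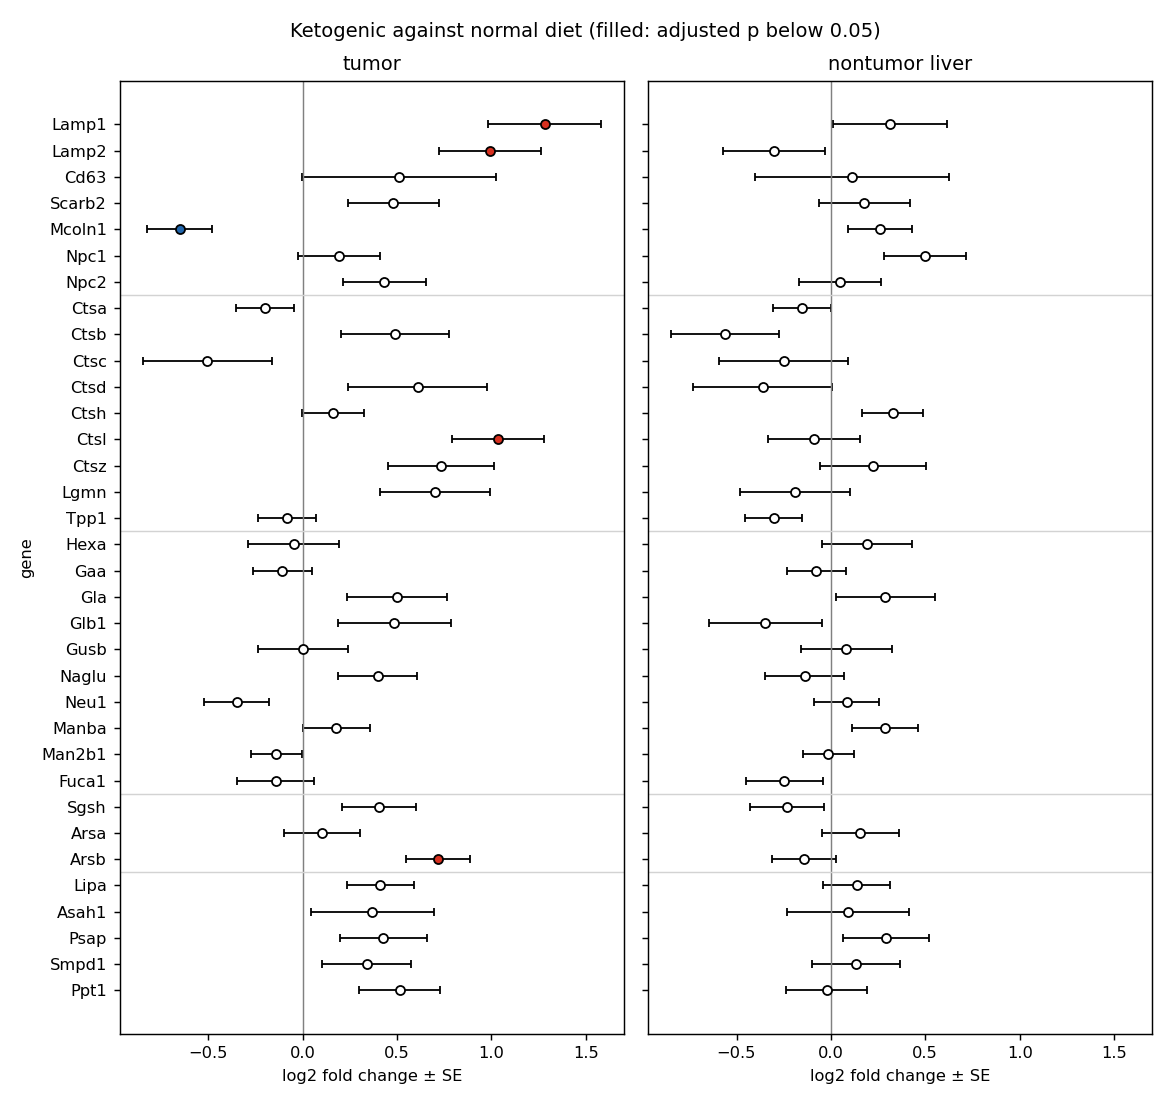
Log2 fold change of the ketogenic against the normal diet for the 34 members in tumors (left) and in nontumor liver (right), with its standard error; filled points are called. In tumors Lamp1, Ctsl, Lamp2 and Arsb are called higher and Mcoln1 lower, and in nontumor liver 0 points are filled.

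Members with an E-box in a promoter window did not all move one way, and which factor binds there was not tested. On KD 6 of the 12 were called higher in tumors and 3 lower, and among the 18 with a window and no E-box 6 were higher and 1 lower, where 16.6% of all genes were higher and 16.4% lower. These counts without KD nontumor 3 and 4 were 3 higher and 3 lower with an E-box and 2 higher and 0 lower without. Over all genes 29.4% had an unadjusted p below 0.05 in limma in that fit, against 43.5% with all libraries. On ND the counts were 2 higher and 2 lower with an E-box and 4 higher and 2 lower without, where 14.6% of all genes were higher and 14.3% lower. The median log2 fold change on KD was 0.59 with an E-box and 0.23 without (0.26 and 0.0072 without those libraries), and on ND 0.13 and 0.24. Of the printed genes Ctsd and Glb1 rose in KD tumors with and without those libraries, Lamp1 only with them, Mcoln1 and Arsa fell both ways, and Cd63, with no E-box in its window, had the greatest rise.

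The transcription factor genes Tfeb, Tfe3 and Mitf were called higher in none of the comparisons. Tfeb stood at a mean of 7.54 ± 1.40, 9.18 ± 3.48, 10.4 ± 1.497 and 6.28 ± 0.5001 rescaled TPM in ND nontumor, ND tumor, KD nontumor and KD tumor (SD, n = 4 each). It fell in KD tumors (-0.65 ± 0.21, adjusted p = 0.0243), and on ND its log2 fold change was 0.21 ± 0.21, adjusted p = 0.489. Tfe3 had -0.30 ± 0.23, adjusted p = 0.357, on ND and -0.21 ± 0.23, adjusted p = 0.5, on KD, and Mitf had 0.03 ± 0.19, adjusted p = 0.917, and -0.23 ± 0.19, adjusted p = 0.366. Of 25 tested genes of the TFEB family and of mTORC1 signalling on lysosomes, 3 rose and 1 fell on ND (14.6% and 14.3% of all genes did). On KD 3 rose and 5 fell (16.6% and 16.4% of all genes did). Zkscan3, a transcription factor described as a repressor of autophagy and lysosomal genes, fell on both diets (-0.68 and -1.27). Lamtor1, which anchors the Ragulator complex to the lysosome, rose on KD (1.21 ± 0.22, adjusted p = 0.000657) and was higher in KD than in ND tumors (0.90 ± 0.22, adjusted p = 0.0142). Mtor, the kinase itself, rose on ND (0.42 ± 0.13, adjusted p = 0.0278) and Rptor, its partner in mTORC1, on KD (0.54 ± 0.20, adjusted p = 0.0489), while Tsc1 and Nprl2, both upstream inhibitors, fell on KD (-0.79 and -0.86).

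Lysosomal hydrolases and activators outside the set were called in both directions. Of 35 tested, 3 rose and 7 fell on ND and 6 rose and 2 fell on KD, with medians of -0.15 and 0.00. Over all genes 14.6% rose and 14.3% fell on ND, and 16.6% rose and 16.4% fell on KD. Man2b2, an alpha-mannosidase, rose on both diets (1.36 ± 0.19, adjusted p = 8.28e-05, and 1.55 ± 0.19, adjusted p = 3.2e-05), from a mean of 19.6 to 51.0 on ND. Hyal1, which cuts hyaluronan, fell on both (-2.38 ± 0.32, adjusted p = 4.7e-05, and -2.09 ± 0.32, adjusted p = 0.000187). On KD Gm2a, the GM2 activator that works with the product of Hexa, rose by 1.32 ± 0.33, adjusted p = 0.00563, and Aga, aspartylglucosaminidase, by 1.26 ± 0.25, adjusted p = 0.00133. Aga was also higher in KD than in ND tumors (1.04 ± 0.25, adjusted p = 0.0129), where Ctsw, Idua and Dpp7 were lower. On ND Dpp7 rose (0.71) and Ctso fell (-0.99).

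Among 40 tested genes of other lysosomal membrane proteins and carriers 4 rose and 8 fell on ND (14.6% and 14.3% of all genes did). On KD 6 rose and 8 fell (16.6% and 16.4% of all genes did). Litaf, a late endosomal protein, rose on both diets (0.93 and 1.01), as did Mfsd12, a lysosomal cysteine importer (0.96 and 1.51), and Tmem192 (1.05 and 1.33). Cd1d1, which presents lipid antigens, fell on both (-1.33 and -1.55), and so did Abcd4, a transporter needed to release cobalamin (-0.89 and -1.51). Cd164, a sialomucin that resembles the LAMP proteins, fell on ND (-1.34 ± 0.29, adjusted p = 0.00228) and was higher in KD than in ND tumors (1.11 ± 0.29, adjusted p = 0.0175).

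The proton pump and the sorting machinery also gave calls in both directions. Over all genes 14.6% rose and 14.3% fell on ND, and 16.6% rose and 16.4% fell on KD. Between KD and ND tumors 7.35% were higher and 8.63% lower. Of 19 tested V-ATPase subunits and accessory genes 3 rose and 2 fell on ND, 6 rose and 1 fell on KD, and 5 were higher and 3 lower in KD than in ND tumors. Atp6v0d2, a subunit known from osteoclasts and macrophages, rose on both diets (1.77 ± 0.27, adjusted p = 0.000133, and 1.42 ± 0.27, adjusted p = 0.000843). Tcirg1, the a3 subunit, rose on ND (0.49 ± 0.18, adjusted p = 0.0469) and fell on KD (-0.66 ± 0.18, adjusted p = 0.0096), and its difference between the diets passed (-1.15 ± 0.25, adjusted p = 0.0482). Atp6v1e1 and Atp6v1a, of the cytosolic pump domain, rose on KD (0.83 and 0.85). Of 27 sorting genes 2 rose and 2 fell on ND and 5 rose and 5 fell on KD. Both mannose 6-phosphate receptor genes rose on KD, Igf2r by 0.89 ± 0.19, adjusted p = 0.00193, and M6pr by 0.75 ± 0.19, adjusted p = 0.00714. Ap1s1, of the AP-1 coat, rose on both diets (1.20 and 1.78), and Gnptg, a subunit of the enzyme that makes the mannose 6-phosphate tag, fell on both (-0.68 and -0.64). Vps11 and Vps16, shared by the tethering complexes CORVET and HOPS, were lower in KD than in ND tumors (-0.94 and -0.89), and Ap3m1 was higher (1.10).

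The KD counts of these lists also shrank without KD nontumor 3 and 4, as did the calls over all genes. In that fit 29.4% of all genes had an unadjusted p below 0.05 in limma, against 43.5% with all libraries. Whether the lists shrank more than other genes was not tested. The list counts became 3 higher and 2 lower for hydrolases, 1 and 3 for membrane proteins and carriers and 1 and 0 for the V-ATPase. They were 2 and 0 for sorting and 2 and 2 for the TFEB and mTORC1 list. Of the genes named above, Tfeb, Rptor, Tsc1, Gm2a, Mfsd12, Tmem192, Tcirg1, Atp6v1e1, Atp6v1a, M6pr and Gnptg were then not called on KD, with adjusted p from 0.0551 (Tsc1) to 0.423 (Atp6v1e1), and Nprl2, Lamtor1, Zkscan3, Man2b2, Hyal1, Aga, Litaf, Cd1d1, Abcd4, Atp6v0d2, Igf2r and Ap1s1 were. Leaving out single libraries ended fewer of these calls. On KD Tfeb was lost without KD nontumor 3 or 4 or KD tumor 2 or 4, Atp6v1e1 without KD nontumor 3 or 4 or any KD tumor, and Rptor without any of 10 libraries (adjusted p up to 0.139). On ND Mtor was lost without ND nontumor 2 or ND tumor 2 or 3, Tmem192 without ND nontumor 2 or 4 or ND tumor 3, and Mfsd12 without ND nontumor 1, 2 or 3 or ND tumor 1 or 2 (adjusted p up to 0.117). The ND calls of Zkscan3 and Tcirg1 were lost without any of 10 and 11 libraries, and the difference of Tcirg1 between the diets without any of 13. Between tumors Dpp7 was lost without ND tumor 1 or KD tumor 2 or 4, Cd164 without ND tumor 3 or KD tumor 2, and Ctsw without any of 9 libraries. The other calls named for these lists were kept with each library left out in turn.

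**Figure D5:**
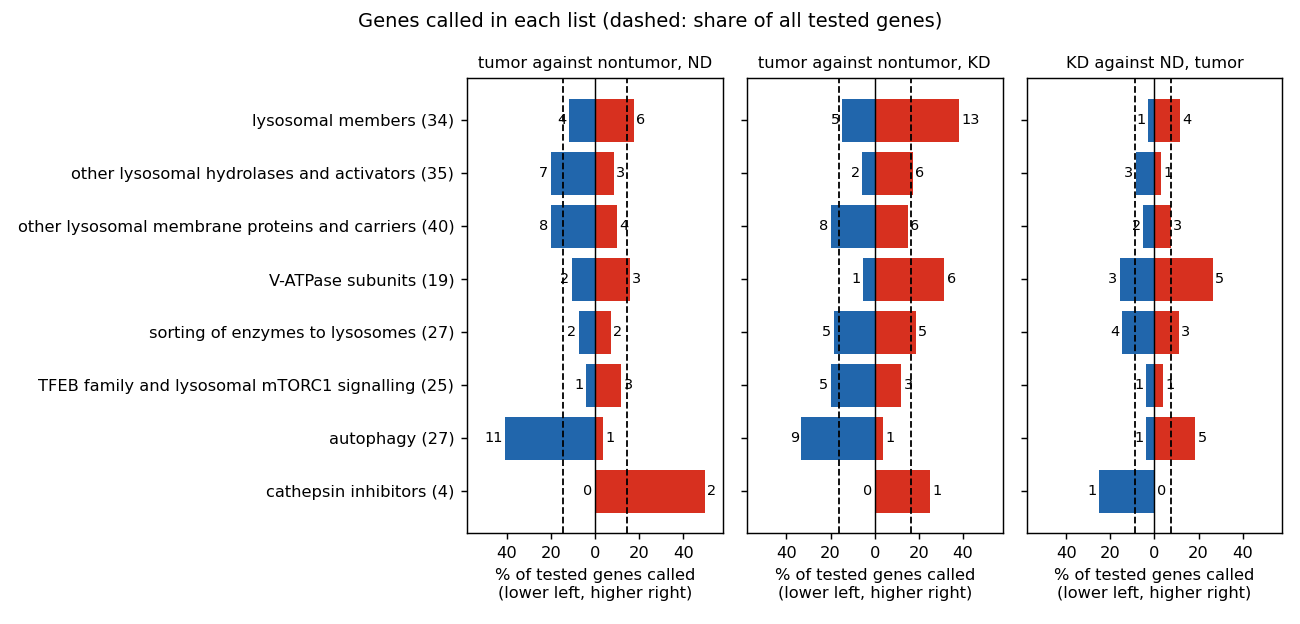
Share of tested genes called higher (red, to the right) and lower (blue, to the left) in the members and in 7 lists of related genes, with the number of tested genes in parentheses and the number called beside each bar; dashed lines mark the share of all tested genes. Members called higher on KD (13 of 34) lie beyond the dashed line, and autophagy genes called lower on ND (11 of 27) lie beyond theirs.

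The tissue is a mixture, and in bulk RNA fewer cells of a type and less RNA per cell cannot be told apart. Hepatocyte markers were high in every library, with a sum over 10 genes of 30067 to 189889 rescaled TPM. Kupffer markers, from cells rich in lysosomes, fell in tumors for 8 of 8 tested genes on ND and 6 of 8 on KD, with a summed level of 351 to 484 in ND nontumor, 19.3 to 41.2 in ND tumor, 191 to 373 in KD nontumor and 39.6 to 74.1 in KD tumor. C6, 1 of the Kupffer list, made up much of the KD nontumor sums, at 103, 83.3, 219 and 232 in KD nontumor 1 to 4. Clec4f stood at 94.4, 61.9, 77.4 and 73.2 in the same libraries. Of 20 general macrophage and monocyte markers 6 rose and 2 fell on ND and 10 rose and 1 fell on KD. Over all genes 14.6% rose and 14.3% fell on ND, and 16.6% rose and 16.4% fell on KD. Their sum was 585 to 718 in ND nontumor, 1006 to 2966 in ND tumor, 381 to 704 in KD nontumor and 1193 to 3370 in KD tumor. The highest of them in tumors was Spp1 (mean 1149 in ND tumor and 1223 in KD tumor), which epithelial tumor cells can also express. Cd14 stood at 6.97 to 9.26 in ND nontumor and 44.3 to 144 in ND tumor. On KD it stood at 2.84 to 16.4 in nontumor liver and 31.0 to 57.9 in tumors. Adgre1 and Csf1r had log2 fold changes of 0.04 and -0.85 on ND and -0.08 and -0.39 on KD. No Kupffer or macrophage marker was at 0 in all libraries of a group. Between KD and ND tumors 0 of the 20 macrophage markers were called by limma (0 at an unadjusted p below 0.05 and 0 with voom), and 2 of the 8 Kupffer markers (Cd5l and Clec4f, both higher on KD) were called.

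Other cell types moved less evenly, where 14.6% of all genes rose and 14.3% fell on ND, and 16.6% rose and 16.4% fell on KD. T and NK cell markers gave 5 higher and 0 lower of 9 on ND and 1 and 0 on KD, with sums of 13.8 to 25.9 in ND nontumor, 28.5 to 95.6 in ND tumor, 13.7 to 28.0 in KD nontumor and 14.3 to 49.5 in KD tumor. Endothelial markers gave 4 higher and 4 lower of 12 on ND and 1 and 1 on KD, and stellate cell and fibroblast markers 3 and 3 of 11 on ND and 4 and 2 on KD. Hepatocyte markers gave 2 higher and 1 lower of 10 on ND and 5 and 1 on KD, and cholangiocyte markers 1 and 1 of 4 on ND and 0 and 1 on KD. For 5 B cell markers limma called 0 on either diet (0 at an unadjusted p below 0.05, 0 with voom), with sums of 126 to 262, 46.8 to 350.2, 81.4 to 126 and 68.8 to 803 in ND nontumor, ND tumor, KD nontumor and KD tumor. For 5 neutrophil markers limma called 0 on ND (0 unadjusted, 0 with voom) and 0 on KD (1 unadjusted and 1 with voom), with sums of 18.2 to 99.0, 15.7 to 74.6, 18.0 to 67.5 and 47.8 to 111 in the same order. Red blood cell markers fell for 4 of 5 on ND, and limma called 0 on KD (1 unadjusted and 1 with voom). Ly6g, a defining neutrophil marker, was at 0 in all ND nontumor and all KD tumor libraries. Without KD nontumor 3 and 4 the KD counts were 0 higher and 4 lower for Kupffer markers, 2 and 1 for macrophage markers and 2 and 1 for hepatocyte markers. Over all genes 29.4% then had an unadjusted p below 0.05 in limma on KD, against 43.5% with all libraries. The part of these cell types in the members' differences was not tested.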

How the data were processed

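RNA from tumor and nontumor liver was sequenced, and 1 table of 20601 genes and 16 libraries was used. The authors deposited TPM values. Per the submitters' processing notes FastQC, HISAT2, SAMtools and featureCounts were used with mm10, with versions and the step from counts to TPM not given in the sources used here. The table names nontumor columns with a P and the titles use an N instead, so they were matched by diet letters and number. The number of columns of no sample was 0. Low values were whole multiples of the worth of 1 read for 20601 of 20601 genes (tolerance 0.001), which gave the read numbers. No libraries were near copies (lowest chi-square per degree of freedom 12.3).

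TPM values were divided by median-of-ratios factors, genes with a rescaled TPM of at least 1 in at least 4 libraries were kept, and log2(value + 1) was fitted with limma 3.58.1 (R 4.3.3) with a variance trend and 4 group means over all 16 libraries. The 5 comparisons were Benjamini-Hochberg adjusted over all tested genes, with a threshold of 0.05. The script was tested on simulated data. Alternatives were the deposited TPM, a common sum, a pseudocount of 0.1, no filter, only the groups compared, sample weights, a replicate block, length and GC trends removed, each library left out, KD nontumor 3 and 4 left out, and voom on recovered reads. The members and lists were chosen with earlier results of these data known.

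All 34 members are reported, with each library's value for those called without overlap of the groups. From each list of related genes up to 3 genes per direction and comparison could be named, by size of change among those called without overlap and with a mean of at least 5 in the higher group. Tfeb, Tfe3 and Mitf are given whatever their value. Spp1, Cd14, Adgre1, Csf1r, Cd5l and Clec4f were named from the marker lists after their values were seen. Some results are not reported here.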

Additional observations from a re-analysis of the deposited data

Results flagged for a closer look

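Among the 136 sets of 4 libraries given by the 34 members and the 4 groups, 2 held a library far from the other 3. Gaa, the acid alpha-glucosidase gene, had its lowest ND tumor level in ND tumor 3, at 20.2 rescaled TPM, with the other ND tumors at 26.5 to 27.4. The gap to the nearest library was 0.871 of the range of the group. Neu1, the gene of the lysosomal sialidase, had its highest KD nontumor level in KD nontumor 3, at 46.2, with the others at 30.4 to 32.8, and the gap was 0.845 of the range. Both ratios exceed Dixon's 95% limit for 4 libraries, which chance alone passes in about 1 in 20 groups. Gaa kept its calls when ND tumor 3 was left out, and Neu1 was called in no comparison.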

How the results depend on the processing

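On the deposited TPM 1418, 1111, 113, 65 and 14 genes were called for tumor against nontumor on ND, the same on KD, diet in tumors, diet in nontumor liver and the difference of differences, against 3823, 4361, 2109, 7 and 87 on the rescaled values. Members called were then 1 on ND, 2 on KD and 0 between tumors, and Tpp1 on ND stood at 0.20, which is -0.22 relative to the median gene on that scale. With listed genes at a common sum, members called were 8 between tumors and 1 for the difference of differences, and all genes 13 in nontumor liver and 549 for the difference of differences. The median of all genes was 0.42, -0.26, -0.00, 0.69 and -0.67 on the deposited TPM and 0.21, -0.25, -0.34, 0.10 and -0.46 on the common sum, in the same order of comparisons. In nontumor liver 4 genes were called with a pseudocount of 0.1, 3 with only the groups compared, 465 with sample weights and 12 with length and GC trends removed. The difference of differences gave 57 genes with a pseudocount of 0.1, 32 (no filter on low values), 403 (sample weights) and 55 (length and GC). Without KD nontumor 3 and 4, an alternative chosen after seeing the data, 1966 genes and 8 members were called on KD, 89 genes in nontumor liver and 18 for the difference of differences. The cause of these shifts was not tested.

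With 1 library left out in turn, 6 to 13 members were called on ND, 12 to 21 on KD and 3 to 6 between tumors. Over all genes these ranges were 3072 to 4010, 3269 to 4491 and 1053 to 2513, with 5 to 12 in nontumor liver and 9 to 157 for the difference of differences. The ND members were fewest without ND nontumor 4 (6) and the KD members without KD nontumor 3 (12). Members between tumors were fewest without ND tumor 1 (3). Without KD tumor 3, KD tumor 4 or ND tumor 1, 1053, 1122 and 1167 genes differed between tumors. Whether libraries of 1 number in nontumor and tumor come from 1 mouse is not given by the labels. Correlations of their deviations from the group means ran from -0.115 to 0.164. Those of libraries with different numbers ran from -0.233 to 0.184, so these values cannot settle it. A fixed replicate block changed 6 of 102 member results (4 lost, 2 gained) and gave 38 genes for the difference of differences, and a random block with a consensus correlation of -0.0215 changed 0 of 170. Voom on recovered reads, also chosen after seeing the data, lost 2 and gained 2 member calls of 170. Depth limits the lowest members most, such as Gla in the shallowest library, ND nontumor 4.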

Other observations

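Autophagy genes, whose products form the vesicles that deliver cell contents to lysosomes, were called in both directions in tumors. Of 27 tested, 1 rose and 11 fell on ND, where 14.6% of all genes rose and 14.3% fell. On KD 1 rose and 9 fell, where 16.6% of all genes rose and 16.4% fell. The median log2 fold changes were -0.12 and -0.17, and a difference of the list from other genes was not tested. Optn, an autophagy receptor, fell on both diets (-1.18 and -1.26), as did Wipi1, which binds the forming membrane (-0.97 and -1.04). Atg3, which attaches LC3 to lipid, fell on ND (-1.18), and Atg9a, a lipid scramblase, fell on both diets (-0.99 and -1.11), with the ND call lost without ND nontumor 1 or ND tumor 1 or 2. Ulk1, the kinase that starts autophagy, was the gene that rose on ND (0.95), and Atg12 was the one on KD (0.58). Without KD nontumor 3 and 4 the KD counts were 1 higher and 5 lower, and Atg9a and Atg12 were no longer called on KD. Calls over all genes fell in that fit too. Ulk1 was also lost without ND nontumor 2 or 4 or ND tumor 3, and Atg12 without KD nontumor 3. Between KD and ND tumors 5 autophagy genes were higher and 1 lower (7.35% and 8.63% of all genes were), with a median of 0.12. Atg5 and Atg7, of the LC3 conjugation machinery, were among the higher (0.77 and 0.63), and Pik3c3, the lipid kinase VPS34, was the lower one (-0.77). Atg5 was lost without ND tumor 1 or 4 or KD tumor 2, 3 or 4, and Atg7 without ND tumor 3 or 4 or any KD tumor.

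Of 4 tested genes of cathepsin inhibitors, 2 rose on ND and 1 on KD (14.6% and 16.6% of all genes did). Cstb, cystatin B, a cytosolic inhibitor of cysteine cathepsins, rose on both diets (1.58 and 1.44). The ND call was lost without ND nontumor 4 or ND tumor 1, 2 or 4, and the KD call without KD nontumor 3 or 4 or any KD tumor. Without KD nontumor 3 and 4 together the KD value of Cstb was 0.55 (adjusted p = 0.54 in limma). Serpinb6a, a serpin, rose on ND (1.05) and was lower in KD than in ND tumors (-1.06), and both calls were kept with each library left out in turn.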
